A study of Nothobranchius furzeri with 228 samples.

Results

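The 34 fish that carry the animal numbers 51 to 84 each gave a fin clip at 20 weeks and, before that, at 10 weeks of age, and the 68 libraries of these clips are described here out of 228 libraries of 114 fish. The fish were chosen by their number in the labels, and both libraries were present for all 34 of them. All fish of the series were male turquoise killifish, *Nothobranchius furzeri*, of strain MZM-0410, kept under the condition that the labels call normal aging, and the labels name no treatment or transgene. The groups are the 20-week and the 10-week fins of the same fish, so that every fish is its own control. The 20-week sample is always the second clip of its fish, so age, order of clipping and date cannot be told apart. Fish 51-84 died at a median age of 217 days (range 143 to 392), against 311 days in fish 1-50 and 409 days in fish 85 and above. The limits of these ranges were set by earlier work on the same data, with expression already known.

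A fish fin is a thin appendage of bony rays, connective tissue, vessels and nerves under an epidermis, and it grows and renews itself throughout life. A clipped fin regrows by cell division and by the secretion of new collagen matrix. Secreted proteins are made and folded in the endoplasmic reticulum with the help of chaperones. Fin cells, like most vertebrate cells, also run a circadian clock, in which ARNTL with its partner switches on the PER, CRY and NR1D genes that then repress it. A bulk sample of a fin holds all these cells at once, and fewer cells of a type and less RNA per cell cannot be told apart in it.

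The total count per library ranged from 17118309 to 33218716 at 20 weeks, with a median of 22170479, and from 18132025 to 31351300 at 10 weeks, with a median of 24891860. Scaling factors (TMM, a correction for the makeup of a library) lay between 0.726 and 1.18, and 2 libraries stood apart at under 0.8, fish 60 at 20 weeks with 0.741 and fish 78 at 10 weeks with 0.726. Fish 78 also had the change least like that of the other fish, with a correlation across genes of 0.164 with their mean, against a median of 0.730. Without these 2 fish 12521 genes passed the test, against 12244 with them, and all lists below kept their median to within the spread between fish. That limit is loose, and smaller shifts would pass it. The standard deviation between fish of a list's mean log2 change ran from 0.12 (antioxidant genes) to 0.99 (skeletal muscle markers). Markers of the epidermis were the most abundant of the cell type lists, with summed levels of 69804 to 302150 CPM (counts scaled to a common library size, in units of 1e-06 of the scaled total) at 20 weeks and 80580 to 371980 CPM at 10 weeks, and skeletal muscle markers were near 0, at 1.06 to 13.8 and 1.07 to 20.2 CPM. Gene identifiers were given a human symbol only through tables that hold a part of the genes, and 4732 of the genes tested have one. The marker sums therefore cover 11 genes of the epidermis but only 2 of muscle, and low muscle sums do not show that muscle was absent. Where several killifish genes share a symbol the identifier is given, and reads may be split between such copies.

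The comparison asks which transcripts of the fin changed within a fish between the clips. Most genes did. With the fish as a block, edgeR's quasi-likelihood test called 12244 of 16964 genes (72.2%) at a Benjamini-Hochberg adjusted p under 0.05. At 20 weeks 6215 of the genes tested (36.6%) were higher and 6029 (35.5%) lower. The median size of these changes was 0.46 on the log2 scale, 5605 genes changed by over 0.5 and 1533 by over 1, of which 678 were higher and 855 lower at 20 weeks. Among the genes with a symbol, 35.5% rose and 42.5% fell, with a median change of -0.04, and the counts over gene lists below are to be read against these shares. The direction was shared by a median of 85.3% of the fish, and 523 genes changed in the same direction in all 34 fish, 229 upwards and 294 downwards.

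**Figure D1:**
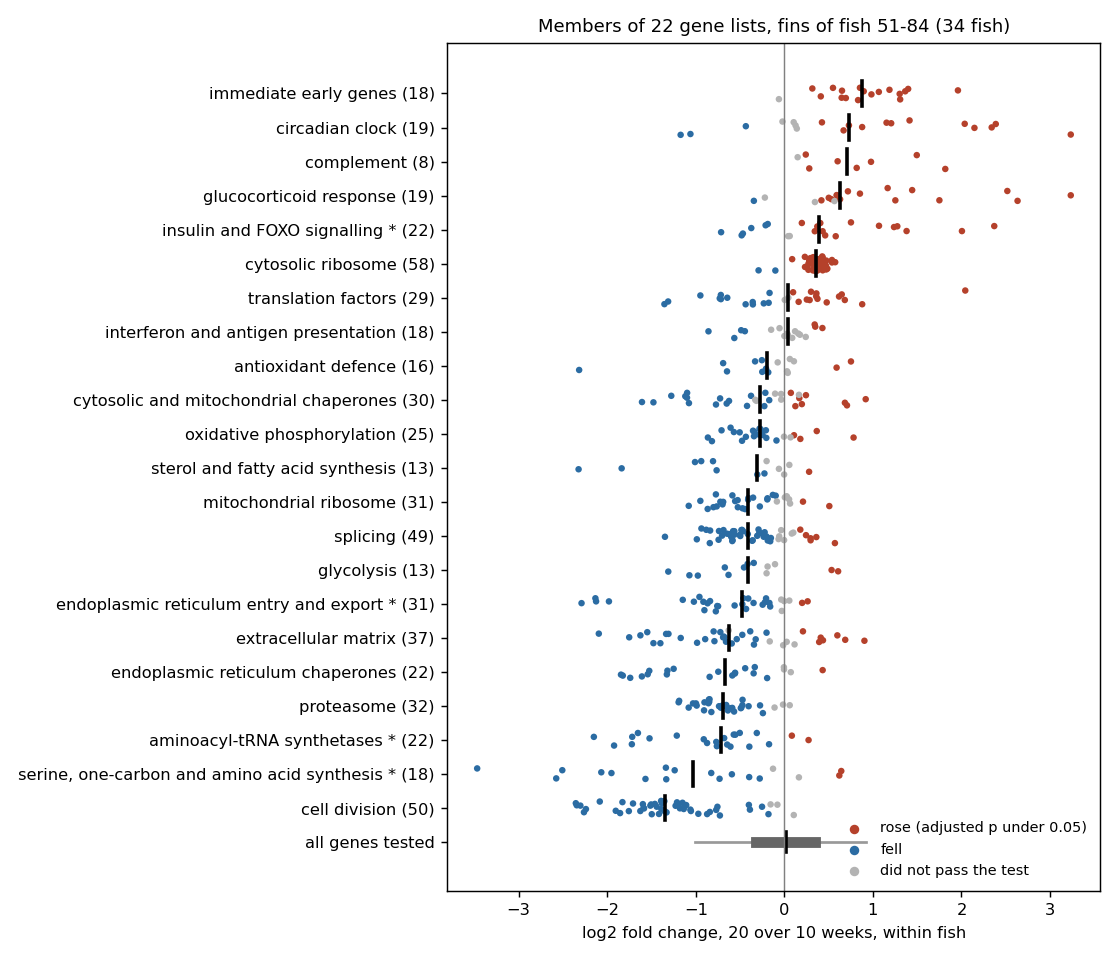
Log2 fold change at 20 over 10 weeks (x axis) of each gene in 22 lists (y axis, number of genes tested in brackets), coloured by the test, with a black bar at the median. The asterisk marks 4 lists added after values had been seen, and the lowest row gives the median, the middle 50% and the middle 90% of all genes tested. Immediate early genes had the highest median (0.88) and cell division genes the lowest (-1.35).

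The largest fall among genes with a symbol and at least 5 CPM was that of PSAT1, which makes phosphoserine in the synthesis of serine. It lay at 0.531 to 8.30 CPM at 20 weeks, with a median of 1.74, against 7.04 to 64.4 CPM, with a median of 21.6, at 10 weeks. The level was lower at 20 weeks in every one of the 34 fish, which is a log2 change of -3.47 (SE 0.17, adjusted p = 2.36e-18). PHGDH, the enzyme of the step before it, had a median of 11.8 CPM (6.41 to 40.6) at 20 weeks and 69.2 CPM (25.7 to 134) at 10 weeks and also fell in all fish, with a log2 change of -2.51 (SE 0.13, adjusted p = 6.69e-18). ASNS, which makes asparagine, fell by 2.07 on the log2 scale, and MTHFD2, a mitochondrial enzyme of folate metabolism, by 1.95. In a list of 18 genes of serine, one-carbon and amino acid synthesis, 14 fell and 2 rose, and the median change was -1.03. The 2 that rose are both copies of ALDH1L1, which oxidises formyl folate, with 0.62 and 0.64. This list was added after values had been seen, so that its count only describes these genes. The mean change over its members was below 0 in 34 of 34 fish, between -1.64 and -0.44.

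Aminoacyl-tRNA synthetases, which charge transfer RNAs with their amino acids, fell as well, 20 of the 22 tested against 2 that rose, with a median of -0.72. This list too was added after values had been seen. MARS, the enzyme for methionine, had a median of 13.3 CPM (4.54 to 119) at 20 weeks and of 74.8 CPM (42 to 131) at 10 weeks, which is a log2 change of -2.15 (SE 0.24, adjusted p = 8.42e-10). Its ranges overlap through fish numbered 68 to 84, which had a median of 40.9 CPM (10.5 to 119) at 20 weeks. In fish 51 to 67 the median at 20 weeks was 8.39 CPM (4.54 to 20.9). MARS was higher at 20 weeks in 2 of 34 fish. WARS (-1.92), GARS (-1.72) and NARS (-1.72), which load tryptophan, glycine and asparagine, fell in 34, 32 and 32 fish. Only KARS (0.08) and FARS2 (0.27), for lysine and for mitochondrial phenylalanine, rose.

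Genes of cell division fell almost as a block. Of 50 tested, 47 fell and none rose, with a median change of -1.35, against 0.02 over all genes tested. MCM6, MCM4 and MCM2, parts of the helicase that opens DNA for replication, are among the 12 genes with a symbol that fell most. MCM6 had 3.16 to 87.8 CPM at 20 weeks, with a median of 12.7, and 18.5 to 200 CPM at 10 weeks, with a median of 70.7. It was lower at 20 weeks in 33 of 34 fish, with a log2 change of -2.35 (SE 0.20, adjusted p = 1.71e-12), MCM4 changed by -2.34 and the copies of MCM2 by -2.26 and -2.24. CDCA7, a target of MYC and E2F, fell by 2.30 on the log2 scale, and WHSC1 (Nfu_g_1_021841), a histone H3 methyltransferase, also by 2.30. Not past the test were 1 copy of RRM2 (Nfu_g_1_019000, -0.16), a subunit of ribonucleotide reductase whose other copy fell by 1.63, and 2 copies of the chromatin protein HMGB2 (-0.08 and 0.11), while the remaining copy fell by 0.40. The mean change over the list was between -2.34 and 0.43, and above 0 in 4 fish, the numbers 58, 59, 61 and 70.

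Genes of the secretory pathway fell together. Of 22 chaperones and folding factors of the endoplasmic reticulum, 18 fell and 1 rose, with a median of -0.67. The gene that rose is ATF6 (0.43), a sensor of unfolded proteins. HSP90B1, the glucose-regulated chaperone GRP94, had 80.1 to 1000 CPM at 20 weeks, with a median of 147.8, and 259 to 777 CPM at 10 weeks, with a median of 559. The log2 fold change was -1.53 (SE 0.21, adjusted p = 3.93e-08), and 5 fish were above their 10-week level. Levels of HSP90B1 at 20 weeks divided by animal number, with 80.1 to 213 CPM in fish 51 to 71 and 256 to 1000 CPM in fish 72 to 84. The 5 fish above their 10-week level, numbers 72, 76, 78, 80 and 82, all belong to the later set. This limit was seen in the values, and no test is given for it. HYOU1 (-1.82), CRELD2 (Nfu_g_1_011824, -1.74) and MANF (-1.61), which are induced with HSP90B1 when unfolded proteins build up, also fell in most fish. They were higher at 20 weeks in 5, 2 and 6 fish. FKBP9, a prolyl isomerase of the same compartment, was 16.4 CPM (9.38 to 65.4) at 20 weeks and 126 CPM (63.7 to 261) at 10 weeks and fell in all fish, by 2.57 on the log2 scale (SE 0.14, adjusted p = 3.53e-17). GPX7, a peroxidase of the endoplasmic reticulum, also fell in all fish (-2.32, SE 0.09, adjusted p = 4.95e-21).

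Factors by which proteins enter and leave the endoplasmic reticulum showed 25 falls and 2 rises among 31 genes, with a median of -0.47, in another list added after values had been seen. CKAP4 (-2.29) and RRBP1 (-2.13), which shape the rough sheets of the organelle, and SEC24D (-2.13) and SEC31A (-1.98), coat proteins of the vesicles that leave it, fell most. SEC24D is known for its part in the export of collagen. Its level was 9.63 CPM (1.82 to 56.9) at 20 weeks, against 57.8 CPM (19.03 to 92.2) at 10 weeks.

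**Figure D2:**
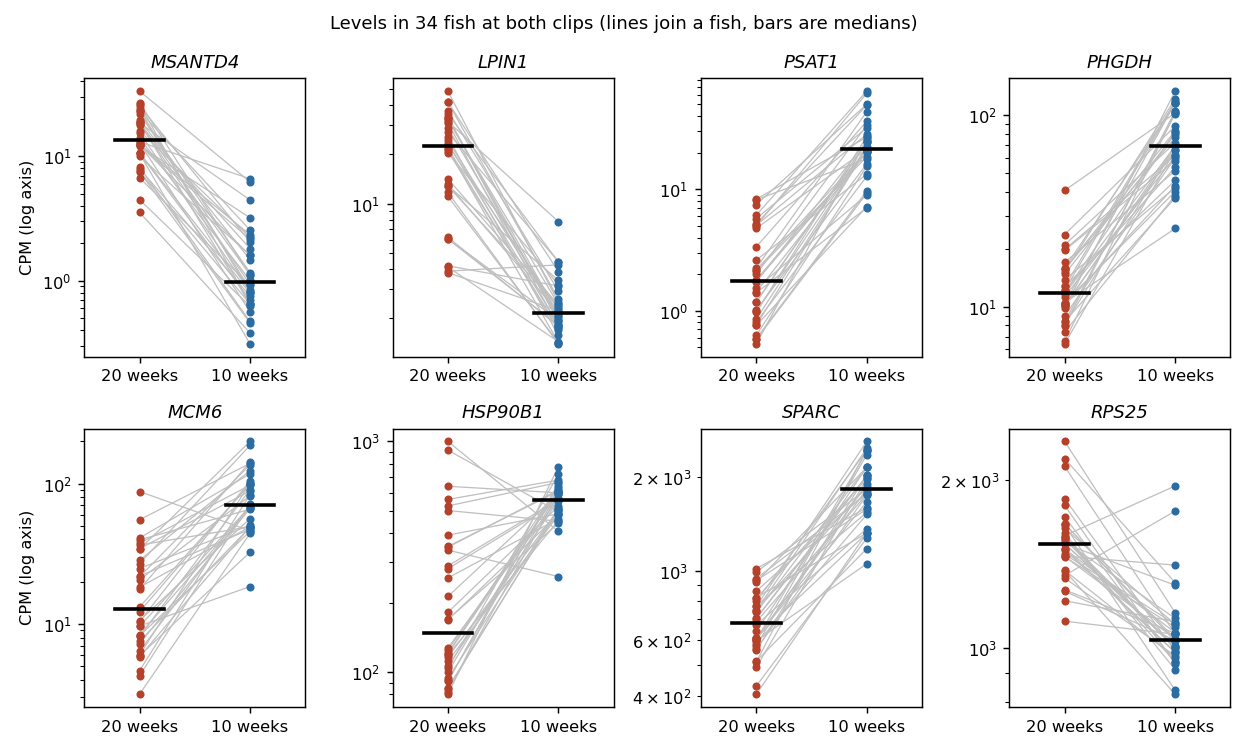
CPM (log axis) of 8 genes in the 34 fish at 20 weeks (left, red) and at 10 weeks (right, blue), with a line for each fish and a bar at the median. PSAT1, PHGDH and SPARC were lower at 20 weeks in all 34 fish and MSANTD4 higher in all 34. For HSP90B1 5 fish, all numbered 72 or above, ran against the others.

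Genes of the extracellular matrix fell in 25 of 37 cases and rose in 7, with a median of -0.63. SPARC, a collagen-binding protein of bone and connective tissue, was 404 to 1018 CPM at 20 weeks, with a median of 680, and 1055 to 2592 CPM at 10 weeks, with a median of 1824. The ages did not overlap for this gene, and the log2 fold change was -1.40 (SE 0.07, adjusted p = 5.53e-18). COL5A2, a chain of the fibrils of type V collagen, fell by 2.095, SERPINH1, the chaperone of collagen, by 1.48, and COL6A1, a chain of the microfibrils around cells, by 1.34, all in 34 of 34 fish. The 7 that rose, by 0.21 to 0.90, are COL17A1, LAMA3 and LAMA5, which anchor the epidermis, TIMP2, and 1 copy each of P4HA1 (Nfu_g_1_000853), FN1 (Nfu_g_1_003374) and VCAN (Nfu_g_1_019317). The other copy of P4HA1, an enzyme of collagen maturation, fell by 0.59. Beside this, 11 of 13 markers of fibroblasts and fin ray tissue fell and 1, PDGFRB (0.32), rose. SPARC, COL5A2 and COL6A1 are members of both lists, so the markers are no separate reading of the cells. Their summed level was 1954 to 5895 CPM at 20 weeks and 4894 to 11002 CPM at 10 weeks. The part of cell makeup in the fall of matrix genes was not tested.

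Markers of other cells moved in several directions. Of 11 epidermal markers 6 rose and 2 fell, with a median of 0.21, while their summed level, most of which is the keratin KRT76 (Nfu_g_1_001437), was lower at 20 weeks, with a median of 133650 CPM against 169620 CPM at 10 weeks. Desmosome genes were among those that rose, DSP by 0.82 and PKP1 by 0.68 on the log2 scale, and the 2 that fell are copies of the keratin KRT76, by 0.47 and 0.42 (Nfu_g_1_021346). Of 7 markers of the endothelium 6 rose and 1 fell, with a median of 0.38 and summed levels of 105.9 to 246 CPM at 20 weeks and 97.1 to 220 CPM at 10 weeks. Of 4 markers of leukocytes 3 rose, with summed levels of 283 to 850 CPM at 20 weeks and 202 to 1162 CPM at 10 weeks, and IL2RB, a chain of the interleukin receptor of lymphocytes, changed most (1.23). Both markers of pigment cells fell, with a median of -0.71. OCA2, a gene of melanosomes, fell by 1.27 on the log2 scale, and MITF, a regulator of pigment cells, by 0.15. Of 6 markers of nerve and Schwann cells 2 fell, NEFL (-1.20) the most, and none rose. The summed level of the red blood cell markers had a median of 24.96 CPM at 20 weeks and 65.04 CPM at 10 weeks. They changed in both directions, HBG1 (Nfu_g_1_007641) by -2.00 and ALAS2 by -0.56, against 1.20 for the other copy of HBG1 (Nfu_g_1_007507). Only 2 muscle markers were tested, of which MYL1 rose by 0.69 and ACTN2 had 0.18.

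The proteasome, which degrades proteins tagged with ubiquitin, fell in 29 of 32 genes and rose in none, with a median change of -0.69. PSMD13, a subunit of its regulatory particle, was 17.98 to 87.2 CPM at 20 weeks, with a median of 27.6, and 50.9 to 94.9 CPM at 10 weeks, with a median of 68.4. It was lower at 20 weeks in 32 of 34 fish, which is a log2 change of -1.19 (SE 0.11, adjusted p = 5.96e-12). PSMD11 (Nfu_g_1_023106, -1.19), PSMD1 (Nfu_g_1_002329, -1.03) and the ATPase PSMC4 (-1.08) are parts of the same particle. Not past the test were a copy of PSMB6 (Nfu_g_1_018067, -0.11), a catalytic subunit whose other copy fell by 0.40, ADRM1 (-0.02), a ubiquitin receptor, and PSMF1 (0.06), an inhibitor. The mean change of the proteasome list was below 0 in 32 fish, down to -1.30, and above 0 only in fish 72 and 78.

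Ribosomal proteins of the cytosol went the other way. Of 58 genes 56 rose and 2 fell, with a median of 0.36. RPS25, a protein of the small subunit, had 1115 to 2343 CPM at 20 weeks, with a median of 1536, and 824 to 1950 CPM at 10 weeks, with a median of 1033. The ranges overlap, it was higher at 20 weeks in 32 of 34 fish, and the log2 change was 0.54 (SE 0.06, adjusted p = 4.18e-10). The changes were small and alike, with RPS28 at 0.54 and RPL23A at 0.49, and the mean of the list was above 0 in 31 of 34 fish. The 2 genes that fell are a copy of RPL5 (Nfu_g_1_014110, -0.29), of which the other copy rose by 0.34, and RPS27A (-0.10), which is made as a fusion with ubiquitin.

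Mitochondrial ribosomes did not follow the cytosolic ones, with 23 of 31 genes lower, 2 higher and a median of -0.41, and MRPS22 (-1.08) changed most. Oxidative phosphorylation had 19 falls and 4 rises among 25 genes, with a median of -0.28. ATP5B, the catalytic chain of ATP synthase, fell by 0.86 and 0.57 on the log2 scale in its copies, and COX6B1, a subunit of cytochrome oxidase, rose in 34 of 34 fish (0.78, SE 0.06, adjusted p = 2.40e-14). TIMM44, which helps to pull proteins into the mitochondrion, fell by 2.32. In glycolysis 8 of 13 genes fell and 2 rose, among them hexokinase HK1 (-0.98 and -1.31 in its copies) and the phosphofructokinase PFKP (Nfu_g_1_012969, 0.61).

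Of 49 splicing factors 37 fell and 6 rose, with a median of -0.41, and SNRPF (-1.35), a core protein of the spliceosome, fell in 33 of 34 fish. Cytosolic and mitochondrial chaperones were mixed, 16 lower and 8 higher of 30, with a median of -0.27. HSPA4, a nucleotide exchange factor of HSP70, fell by 1.61 and 1.12 in its 2 copies (Nfu_g_1_005172 and Nfu_g_1_004432), while DNAJB2 rose by 0.92 and 3 subunits of the chaperonin CCT rose slightly, by 0.07 to 0.17, and 3 others fell, by 0.17 to 0.77. Translation factors were divided, 14 higher and 13 lower of 29, with EIF4E (Nfu_g_1_012127), which binds the cap of messenger RNAs, at -1.31 and EIF4G1, the scaffold it binds, at -0.73. The elongation factor EEF1A1 rose by 2.04 (Nfu_g_1_002821) and 0.88 (Nfu_g_1_014549). Among 16 antioxidant genes 9 fell and 2 rose, 1 copy of the ferritin chain FTL (Nfu_g_1_019641, 0.59) and SESN1 (0.75), while the other copy of FTL fell by 0.25.

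Among the genes that rose, MSANTD4 had the largest change of those with a symbol and at least 5 CPM. It lay at 3.54 to 33.4 CPM at 20 weeks, with a median of 13.5, and at 0.311 to 6.60 CPM at 10 weeks, with a median of 0.971. It was higher at 20 weeks in all 34 fish, with a log2 change of 3.50 (SE 0.18, adjusted p = 3.02e-18). Several of the other genes act on fat and growth hormone. LPIN1 (Nfu_g_1_018267), a phosphatase that makes diacylglycerol for fat storage, had a median of 22.4 CPM (3.79 to 48.7) at 20 weeks and of 2.14 CPM (1.39 to 7.77) at 10 weeks and rose in 33 fish (2.95, SE 0.20, adjusted p = 6.57e-15). LPL, the lipase that releases fatty acids from lipoproteins, and GHR, the receptor of growth hormone, rose in all 34, by 2.35 and 2.37 on the log2 scale. CYP3A43 (Nfu_g_1_007097), a cytochrome P450 of the family that oxidises steroids and drugs, rose in all 34 as well (2.11), and its other copy by 0.33. PHKA2, a regulatory subunit of phosphorylase kinase in glycogen breakdown, rose by 2.105, and ZNF395 by 2.25.

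A glucocorticoid list joined genes that these hormones induce in other vertebrates with the receptors NR3C1 and NR3C2 and the enzyme HSD11B2. Of its 19 genes, which are copies of 13 symbols, 15 rose and 1 fell, with a median of 0.63. TSC22D3 (Nfu_g_1_003683), the glucocorticoid-induced leucine zipper, was 3.34 to 33.5 CPM at 20 weeks, with a median of 13.95, and 1.16 to 4.65 CPM at 10 weeks, with a median of 1.99. It rose in all fish, by 2.63 on the log2 scale (SE 0.15, adjusted p = 4.09e-17), and the other copies of this gene rose by 1.44 (Nfu_g_1_003613) and 1.25 (Nfu_g_1_004440). KLF9, a transcription factor that the hormone induces, changed by 2.52, ZBTB16 by 1.75 (Nfu_g_1_022092), 0.59 (Nfu_g_1_000436) and 0.50 (Nfu_g_1_000574), DUSP1 by 0.85, TXNIP by 0.72 and SGK1 by 0.53. FKBP5, a co-chaperone of the receptor, changed by 1.17 (SE 0.30, adjusted p = 7.47e-04), with a single fish at 825 CPM at 10 weeks against a median of 16.01 CPM, and the call was lost without the replicate block (0.60, adjusted p = 0.186). The receptors themselves rose, NR3C1 by 0.59 and the copies of NR3C2 by 0.63 (Nfu_g_1_007124) and 0.42 (Nfu_g_1_014241). The second copy of NR3C2 had 0.87 in fish 51 to 67 alone and -0.06 (adjusted p = 0.837) in fish 68 to 84 alone. HSD11B2, which inactivates cortisol, fell by 0.34 on the log2 scale. PDK4 (0.57) and the copies of CDKN1A (-0.22 and 0.35) did not pass. PER1, which is also a clock gene, is among those that rose.

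Immediate early genes, which cells switch on within minutes of a stimulus, rose in 17 of 18 cases and fell in none, with a median of 0.88. EGR1 had 7.26 to 92.8 CPM at 20 weeks, with a median of 27.9, and 6.28 to 23.1 CPM at 10 weeks, with a median of 9.49, which is a log2 change of 1.40 (SE 0.18, adjusted p = 2.54e-08). FOSB (1.37) and FOS (1.30) varied more between fish, and were higher at 20 weeks in 26 and 27 of 34. CTGF, a target of mechanical and growth factor signals, was higher in 32 fish (1.07). JUN, the only member that did not pass, changed by -0.06.

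In a list of insulin and FOXO signalling that was added after values had been seen, 14 of 22 genes rose and 6 fell, with a median of 0.39. IRS2 (Nfu_g_1_008662), an adaptor of the insulin receptor, changed by 2.01, DDIT4, an inhibitor of the growth kinase mTOR, by 1.38 and FOXO3 (Nfu_g_1_004534) by 1.24. The genes that fell include the kinases AKT1 (-0.48) and PDPK1 (-0.19). Complement genes rose in 7 of 8 cases, C3 (Nfu_g_1_007235) by 1.82 and C7 (Nfu_g_1_021978) by 1.496. Interferon and antigen presentation genes showed no common direction, with 3 higher, 4 lower and 11 not past the test, and single fish lay far apart in their mean change, from -1.78 in fish 61 to 1.58 in fish 59.

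The circadian clock list had 19 genes, of which 12 rose and 3 fell, with a median of 0.73. PER1, a repressor of the clock, lay at 7.72 to 201 CPM at 20 weeks, with a median of 94.1, and at 2.66 to 17.8 CPM at 10 weeks, with a median of 5.08. The log2 fold change was 3.23 with a large error (SE 0.47, adjusted p = 1.61e-07), since fish differed widely. PER3 changed by 2.34 (SE 0.40, adjusted p = 2.62e-06) and CIART, a further repressor, by 1.41 (SE 0.28, adjusted p = 2.44e-05). HLF (Nfu_g_1_001056, 2.39) and TEF (2.15), transcription factors that carry the rhythm to other genes, rose in 34 and 32 fish, and CRY1 in 34 fish (0.88). NR1D2, the repressor of ARNTL, rose in 3 of its 4 copies, most in Nfu_g_1_010960 (2.04). ARNTL (-1.06) and ARNTL2 (-1.17), the activators, fell. Not past the test were PER2 (0.11) and 3 further copies of HLF (-0.02, 0.13 and 0.14).

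At 20 weeks PER1, PER3, CIART, ARNTL and the NR1D2 copies Nfu_g_1_010960 and Nfu_g_1_013151 divided the fish sharply by animal number. For CRY1, HLF (Nfu_g_1_001056) and TEF the levels of fish 51 to 71 and fish 72 to 84 overlapped. PER2 had medians of 18.8 CPM at 20 weeks and 26.2 CPM at 10 weeks in fish 51 to 71. In fish 72 to 84 its medians were 37.6 and 14.4 CPM. At 20 weeks PER3 was 102.2 to 184 CPM in each of fish 51 to 71 and 15.7 to 32.4 CPM in each of fish 72 to 84. At 10 weeks it was 5.55 to 18.9 CPM in fish 51 to 71 and 19.2 to 39.1 CPM in fish 72 to 84. PER3 was thus high at 20 weeks and low at 10 weeks in the 21 fish up to number 71, while the ages overlapped in the 13 fish from number 72. PER1 had 59.1 to 201 CPM at 20 weeks and 2.66 to 5.90 CPM at 10 weeks in fish 51 to 71, against 7.72 to 26.2 CPM at 20 weeks and 7.52 to 17.8 CPM at 10 weeks in fish 72 to 84. ARNTL ran opposite, with 13.98 to 37.2 CPM at 20 weeks and 67.3 to 90.3 CPM at 10 weeks in fish 51 to 71, against 48.5 to 78.2 and 47.1 to 70.01 CPM in fish 72 to 84. The limit at number 72 was seen in these values, so no test is given for it. The labels used here give no date or time of day of the clips, and the part of the hour of sampling in these levels was not tested.

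**Figure D3:**
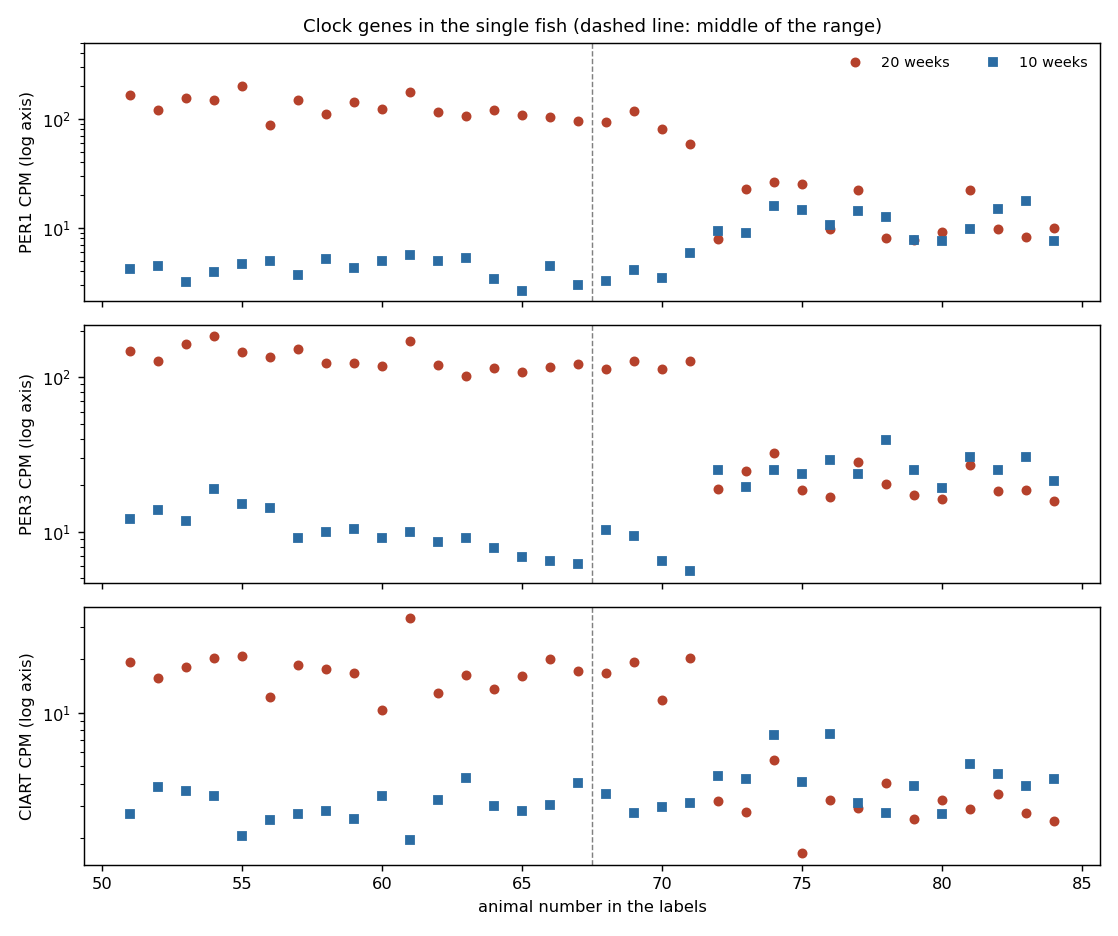
CPM (log axis) of PER1, PER3 and CIART in each fish, by animal number (x axis), at 20 weeks (red circles) and at 10 weeks (blue squares). The ages are far apart in fish 51 to 71 and close together in fish 72 to 84.

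Animal number was also examined for all genes, by fitting fish 51 to 67 and fish 68 to 84, 17 fish each, on their own. These sets divide the range in the middle, and the labels used here name no batch. In fish 51 to 67 12281 genes passed the test and in fish 68 to 84 8320, and 6123 genes passed in both with the same direction and 401 with opposite directions. Changes of several groups were nearer to 0 in the later fish. The colour map of list means shows this fish by fish. For HYOU1 the log2 fold change was -2.82 in fish 51 to 67 and -0.73 in fish 68 to 84, and for MANF -2.76 and -0.39, the value in the later fish with an adjusted p of 0.204. The median change of the proteasome was -0.97 in fish 51 to 67 and -0.45 in fish 68 to 84, and 26 of its 32 genes passed in both with the same direction. Sterol and fatty acid synthesis, in which 8 of 13 genes fell and 1 rose over the whole range, had medians of -0.65 and -0.05. INSIG1, a brake on sterol synthesis that is itself induced with the pathway, changed by -1.94 in fish 51 to 67 and by -0.05 (adjusted p = 0.872) in fish 68 to 84. Cytosolic ribosomes (0.39 and 0.33), cell division (44 of 50 genes passed in both with the same direction) and PSAT1 (-3.85 and -3.12) moved in both. PER1 changed by 4.92 in fish 51 to 67, while its 0.997 in fish 68 to 84 missed the threshold (adjusted p = 0.0704), as did PER3 with 0.47 (adjusted p = 0.386) and CIART with 0.14 (adjusted p = 0.735). Fish 68 to 84 hold fish on both sides of the limit seen at number 72. PER1 was above 50 CPM at 20 weeks in 4 of these 17 fish, so their clock values average unlike fish. HSP90B1 at 20 weeks was divided at the same number, so other values of fish 68 to 84 can average unlike fish too. The difference between fish 51 to 67 and fish 68 to 84 was not tested.

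**Figure D4:**
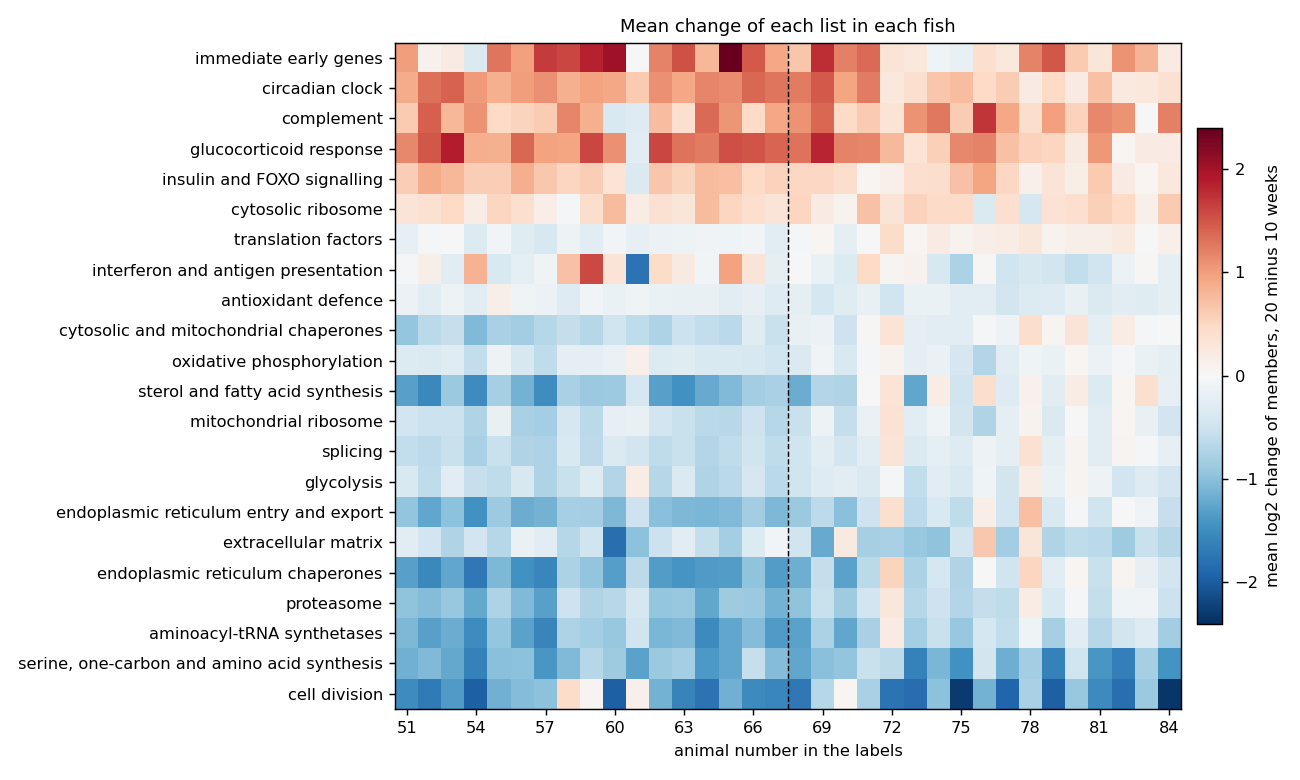
Mean log2 change at 20 minus 10 weeks over the members of each list (rows) in each fish (columns, by animal number), red for higher and blue for lower at 20 weeks. The dashed line is the middle of the range, after fish 67. Serine, one-carbon and amino acid synthesis was below 0 in all 34 fish, and proteasome and chaperone lists were nearer to 0 in many of the later fish.

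Among the genes with no symbol, the rule for named genes gave 2 in each direction. Nfu_g_1_022088 was 8.97 CPM (0.114 to 35.1) at 20 weeks and 0.606 CPM (0.0314 to 2.27) at 10 weeks, with a log2 change of 3.49 (SE 0.34, adjusted p = 4.64e-11). Nfu_g_1_006434 changed by 3.04, with a single fish at 214.5 CPM at 20 weeks against a median of 11.95 CPM. Nfu_g_1_015191 was 131 CPM (3.43 to 576) at 20 weeks and 1740 CPM (400.1 to 3548) at 10 weeks and fell in all fish, by 4.24 on the log2 scale (SE 0.33, adjusted p = 1.84e-13). Nfu_g_1_015114 fell by 4.64.

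Few genes separated the ages completely. For 18 of the 16964 genes tested (0.106%), 3 higher and 15 lower at 20 weeks, the levels of the 34 fish at 20 weeks did not overlap those at 10 weeks. Of these, 3 have a symbol and all of them fell, SPARC, RBP5 and a copy of PRRT4 (Nfu_g_1_011984). RBP5, a cellular binding protein of retinol, was 0.108 to 1.92 CPM at 20 weeks and 2.99 to 10.4 CPM at 10 weeks, with a log2 change of -2.54, and this copy of PRRT4 was 57.4 to 128 CPM at 20 weeks and 150 to 467 CPM at 10 weeks (-1.25), while its other copy rose in all 34 fish (0.99). Genes named in this paragraph were picked after their values had been seen.

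The change of fish 51-84 was then compared with that of the other fish, of which 48 carry numbers from 1 to 50 and 32 numbers of 85 or above. The change within a fish (log2 CPM at 20 minus 10 weeks) differed from that in fish 1-50 for 11206 of 17961 genes (62.4%) and from that in fish 85 and above for 11911 (66.3%), in limma with Benjamini-Hochberg adjustment. By the same method 1616 genes changed by over 1 on the log2 scale in fish 51-84, against 118 in fish 1-50 and 939 in fish 85 and above. These are mean changes over the fish of a range, and levels in fish 1-50 were spread widely for several genes given below. A small mean change there need not be a small change in each fish. Of the 1533 genes that changed by over 1 in fish 51-84 in the edgeR fit, 618 changed in the same direction in fish 1-50, 62 in the opposite one and 853 did not pass there. In fish 85 and above the numbers were 459, 454 and 620. These calls in the other ranges were of any size. Over all 17961 genes 32.9% passed in fish 1-50 and 62.9% in fish 85 and above. An earlier check of these data found labelled pairs of samples, in fish 18, fish 43 and fish from number 95 on, that may not come from the same fish. The fish from number 95 on are 22 of the 32 fish of their range. By the correlation of deviations from the age means, the labelled pair was over 0.1 in 18 of these 22 fish and its own best match in 11, against 31 and 18 of the 34 fish numbered 51 to 84. In fish 1-50 it was over 0.1 in 41 of 48 fish, among them fish 18 (0.155) and fish 43 (0.113). It was below 0 in fish 28, 29 and 50, which were kept. Without fish 18, fish 43 and the fish from number 95 on, 10918 genes differed from fish 1-50 and 9916 from fish 85 and above. Since the range limits were set with expression known, these differences describe the 3 ranges and are no independent evidence for them.

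The groups described above differed between ranges gene by gene. In the proteasome the median change was -0.69 in fish 51-84, 0.06 in fish 1-50 and 0.32 in fish 85 and above, and the change was lower in fish 51-84 for 29 of 32 genes against fish 1-50 and for 32 of 32 against fish 85 and above, where the shares over all genes were 31.8% and 34.1%. Cell division had medians of -1.35, -0.53 and 0.03, and was lower in fish 51-84 for 36 and 46 of 50 genes. Endoplasmic reticulum chaperones had -0.67, -0.05 and 0.33, with 18 and 18 of 22 lower. Cytosolic ribosomes rose more in fish 51-84 (0.36) than in fish 1-50 (0.12) for 56 of 58 genes and than in fish 85 and above (0.22) for 31, where 30.6% and 32.2% of all genes were higher. The matrix list stood less apart, with -0.66 in fish 51-84, -0.38 in fish 1-50 and -0.43 in fish 85 and above, and 15 and 14 of 37 genes lower.

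**Figure D5:**
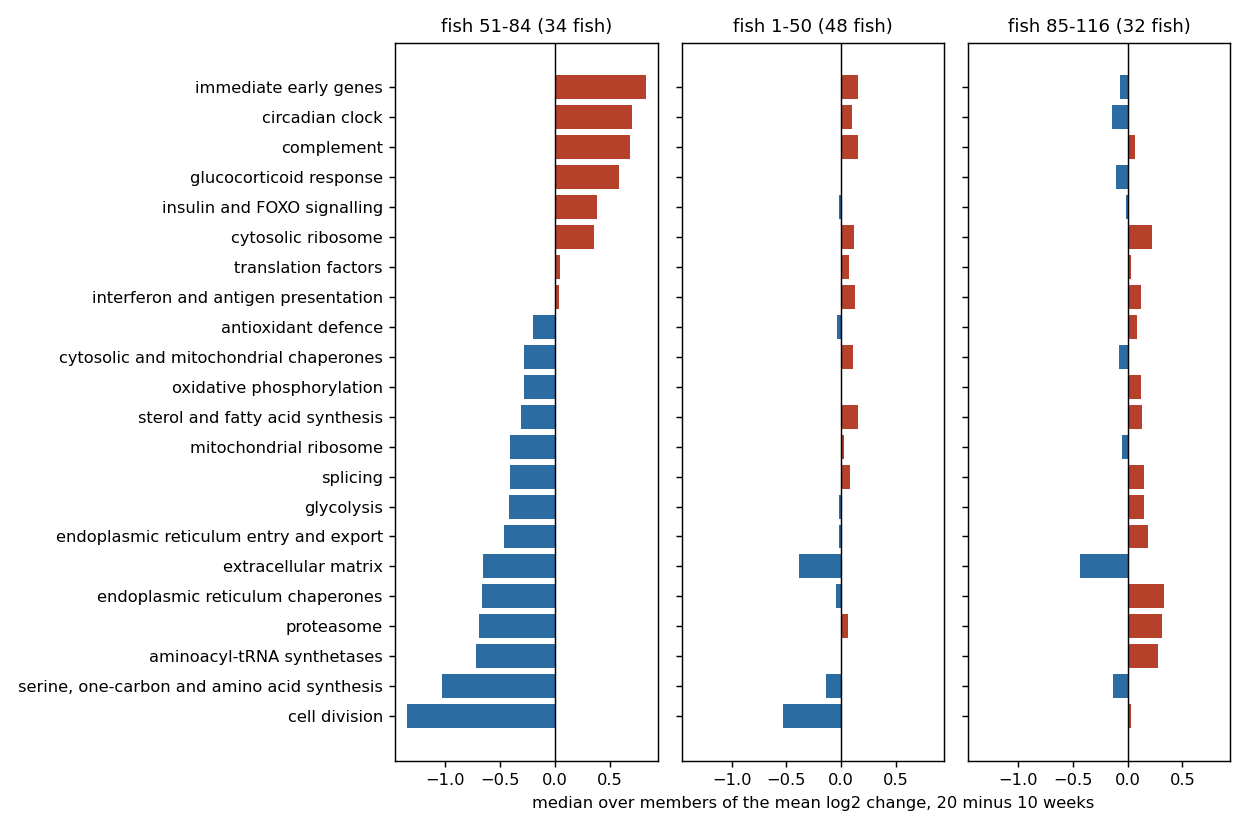
Median over the members of each list of the mean log2 change at 20 minus 10 weeks (x axis), in fish 51-84 (left), fish 1-50 (middle) and fish 85 and above (right). Proteasome genes were at -0.69, 0.06 and 0.32 and cell division genes at -1.35, -0.53 and 0.03.

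Against fish 85 and above, clock genes had the largest differences among genes with a symbol and at least 5 CPM. PER3 changed by 6.66 more on the log2 scale in fish 51-84 than in fish 85 and above (adjusted p = 8.53e-25 in limma). Its level in fish 51-84 was 15.7 to 184 CPM at 20 weeks and 5.55 to 39.1 CPM at 10 weeks. In fish 85 and above it was 4.86 to 11.5 CPM at 20 weeks and 100.3 to 215 CPM at 10 weeks. Opposite to this fall, the median of fish 51 to 71 was 124.7 CPM at 20 weeks and 9.31 CPM at 10 weeks. That of fish 72 to 84 was 18.7 CPM at 20 weeks and 25.1 CPM at 10 weeks, so these fish did not share the rise. PER1 (5.92) and CIART (5.12) differed likewise, and a copy of NR1D2 (Nfu_g_1_020882) had the opposite difference (-4.49), with medians of 9.63 and 15.4 CPM in fish 51-84 and of 38.96 and 2.64 CPM in fish 85 and above. PER1 differed from fish 1-50 by 3.14 (adjusted p = 1.20e-10), which was 5.01 with fish 51 to 67 alone and 1.27 with fish 68 to 84 alone. The differences of PER3 (2.24) and CIART (1.75) from fish 1-50 were smaller, and that of this copy of NR1D2 (-0.57) was not called (adjusted p = 0.109). Those of PER3 and CIART were 3.75 and 2.90 with fish 51 to 67 alone. With fish 68 to 84 alone they were 0.73 and 0.60 and were not called (adjusted p = 0.260 and 0.217 in limma). Clock values with fish 68 to 84 alone average fish on both sides of the limit at number 72. Fish 1-50 were themselves widely spread, with PER3 at 4.77 to 166 CPM at 20 weeks and 2.20 to 237 CPM at 10 weeks. CYP3A43 differed from fish 85 and above by 4.79, having a median of 186 CPM at 20 weeks and 39.1 CPM at 10 weeks in fish 51-84 and of 26.2 and 183 CPM in fish 85 and above.

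Against fish 1-50, PSAT1, MSANTD4, LPIN1 and LPL differed about as much as PER1. PSAT1 fell further in fish 51-84 than in fish 1-50, by -3.11, and than in fish 85 and above, by -3.94 (adjusted p = 6.71e-17 and 1.41e-21 in limma). Its medians were 1.74 CPM at 20 weeks and 21.6 CPM at 10 weeks in fish 51-84, 13.2 and 16.7 CPM in fish 1-50 and 17.4 and 12.3 CPM in fish 85 and above. LPL (2.85), LPIN1 (2.91) and MSANTD4 (3.09) rose more than in fish 1-50. LPL had medians of 25.5 and 5.12 CPM in fish 51-84 and of 4.01 and 5.22 CPM in fish 1-50. Levels at 20 weeks were spread widely in fish 1-50, with LPL at 0.158 to 31.4 CPM and PSAT1 at 0.730 to 51.9 CPM. In fish 51-84 LPL was 8.03 to 106.7 CPM and PSAT1 0.531 to 8.30 CPM at that age. MARS (-2.41), TIMM44 (-2.68) and DPP3, a peptidase that removes dipeptides from the ends of peptides (-2.32), fell below the change of fish 1-50, and DPP3 (-3.10) and FKBP9 (-3.14) below that of fish 85 and above. The differences given in this paragraph kept their sign and their call without fish 18, fish 43 and the fish from number 95 on and with either set of 17 fish alone, but their sizes depended on the set. Against fish 1-50, TIMM44 had -4.03 with fish 51 to 67 and -1.32 with fish 68 to 84, MARS -3.42 and -1.41, and DPP3 -3.19 and -1.44.

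Levels were also compared between ranges for the genes that changed most in fish 51-84. Of the 678 genes that rose by over 1 in fish 51-84, 98.1% had a higher mean log2 level at 20 weeks in fish 51-84 than in fish 1-50 and 97.2% than in fish 85 and above, with median differences of 0.57 and 0.64. At 10 weeks 11.2% and 16.52% were higher in fish 51-84, with median differences of -0.24 and -0.33. Of the 855 genes that fell by over 1, 0.936% and 1.64% were higher in fish 51-84 at 20 weeks, with median differences of -0.71 and -0.81, and 66.8% and 70.2% at 10 weeks, with 0.14 and 0.21. These genes were chosen for their change in fish 51-84, and the comparison of levels is a description without a test. Fish 51-84 and fish 85 and above were less far apart in PER1 and CIART at 20 than at 10 weeks. For PER3 they were further apart at 20 weeks on the log2 scale, with medians of 114.3 and 6.75 CPM. At 10 weeks PER3 had 12.99 and 167.1 CPM. PER1 had medians of 94.1 CPM in fish 51-84 and 13.4 CPM in fish 85 and above at 20 weeks, and of 5.08 and 131 CPM at 10 weeks. CIART had 13.3 and 2.88 CPM at 20 weeks and 3.33 and 45.4 CPM at 10 weeks.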

How the data were processed

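Fin clips of 34 fish at 20 and 10 weeks were used (68 libraries), with the other 160 libraries for comparisons between ranges. The authors deposited raw counts (whole reads for each gene in each library). Libraries were made with TruSeq RNA v2, which does not mark the strand, so overlapping and antisense genes cannot be told apart. Tools in the submitters' notes are featureCounts 1.5.0, TopHat2 2.1.0 and bcl2fastq 1.8.4. For the fins, genome build and annotation were not given in the sources used here. All columns of per-sample values matched a sample.

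Human symbols were taken from supplementary tables of the study (names only). Of 26739 identifiers 5885 were in them, 5369 with exactly 1 symbol, and list members without one were not counted. None matched the RefSeq gene table, so that no sequences or positions are given. After filterByExpr 16964 genes were tested (99.9% of counts), with edgeR 4.0.16 in R 4.3.3, TMM factors and a term for each fish. Tests were two-sided, and Benjamini-Hochberg adjusted p-values under 0.05 were called. Each SE was worked back from the test, as the absolute log2 change divided by the square root of its F statistic. CPM were scaled by TMM over all libraries. Differences between ranges were tested with limma 3.58.1 with trend on within-fish differences of log2 CPM (prior count 1). DESeq2 1.42.0 was run as an alternative.

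The labels name the fish of each sample, which pairs them. Deviations of the samples of a fish from the age means had a mean correlation of 0.299, against -0.00706 for different fish, and 31 of 34 pairs were over 0.1. The remaining pairs were those of fish 60 (0.0987), fish 72 (0.0540) and fish 78 (0.0327). No 2 libraries of an age agreed within sampling noise. Named genes were called, averaged at least 5 CPM and moved one way in 75% or more of the fish: the 12 largest changes with a symbol and 2 without, each way. Each list gave up to 4 called members of at least 5 CPM (the clock and glucocorticoid lists all members at that level), and each comparison of ranges the 4 largest differences each way. Other genes, mainly exceptions in lists and cell type markers, were named after their values were seen. The members, lists and range limits were chosen with earlier results of these data known, and 4 lists after seeing values. Methods were tested on simulated data in which a changed gene changed alike in all fish of the range. Fish differed in their change here, and the simulation does not cover that spread.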

Additional observations from a re-analysis of the deposited data

Results flagged for a closer look

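Many genes changed differently in fish 51-84 than in other ranges of animal numbers, by the limma test of the difference itself: 11206 genes against fish 1-50 and 11911 against fish 85 and above. Differences below are on the log2 scale, change in fish 51-84 minus change in the other range. Above fish 1-50 lay PER1 (3.14), MSANTD4 (3.09), LPIN1 (2.91) and LPL (2.85), and below it PSAT1 (-3.11), TIMM44 (-2.68), MARS (-2.41) and DPP3 (-2.32). Above fish 85 and above lay PER3 (6.66), PER1 (5.92), CIART (5.12) and CYP3A43 (4.79), and below it a copy of NR1D2 (-4.49), PSAT1 (-3.94), FKBP9 (-3.14) and DPP3 (-3.10). The range limits were set with expression known, and range and date of sampling cannot be told apart.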

How the results depend on the processing

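The count of genes changed in fish 51-84 stayed within 1.5 times of 12244 under all 11 alternatives, from 8320 (fish 68 to 84 only) to 13456 (no filter on low counts), and 12494 with DESeq2. Samples of a fish are paired by the labels, and with no replicate block 11670 genes passed. The count of genes whose change differs from fish 1-50 was 7457 with fish 68 to 84 only, against 11206, and 11509 with fish 51 to 67 only; the cause was not tested. Of 128 named genes, 26 lost their call in fish 68 to 84 only, 5 in fish 51 to 67 only and 5 with no replicate block (FOS, FKBP5, a copy of ZBTB16 and both copies of IFI27L1). NR3C2 turned to -0.060 in fish 68 to 84 only, and in fish 51 to 67 only PER2 turned to -0.68 and HLF (Nfu_g_1_023410) to -0.17; the cause was not tested. In fish 68 to 84 only the median of cytosolic and mitochondrial chaperones was 0.03 and that of interferon genes -0.16, and in fish 51 to 67 only that of translation factors -0.13. No scaling moved the median of all genes by over 0.1. A depth of at least 17118309 counts per library limits mainly genes under 1 CPM, and lists hold only genes with a symbol.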
